A study of Mus musculus with 3 samples.

Results

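Arc, Npas4, Homer1, Bdnf, Nptx2 and Ier5, a set of 6 genes that neurons switch on after synaptic activity, were followed across the cell classes of the mouse nucleus accumbens. They were chosen by symbol from the 28001 features of the deposited count table, and all 6 were found. All samples belong to a single group: tissue of Thy1::ChR2 mice in which FLiCRE labelling ran while ChR2 was stimulated with light in the NAc (nucleus accumbens), taken as a coronal dissection of 400 um. ChR2 is a light-gated cation channel, here under the Thy1 promoter, which is active in subsets of projection neurons. FLiCRE is a recorder built from several proteins. When calcium is high and light is on, a protease (TEV) releases a transcription factor (tTA), and this factor drives an mCherry reporter. No group without stimulation, without labelling or without ChR2 was analysed here, so a level cannot be set against an unstimulated one. Whether each library is 1 mouse or a pool, and the age of the mice, is not given in the sources used here.

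Synaptic input raises calcium in the postsynaptic cell, and calcium-dependent kinases then act on transcription factors such as CREB, MEF2 and SRF that are already bound near activity-response genes. Some of these genes encode transcription factors that act on a later wave of genes, and others encode proteins that work at the synapse itself. Npas4 is a transcription factor induced by calcium in neurons, and Ier5 is an immediate early gene whose product takes part in heat shock factor control. Arc and Homer1 act on the postsynaptic side: Arc promotes removal of AMPA receptors from the membrane, and Homer1 makes long scaffold forms that tie group 1 metabotropic glutamate receptors to Shank and to inositol trisphosphate receptors, and a short activity-induced form, Homer1a, that loosens these ties. Bdnf encodes a secreted ligand of the receptor TrkB (Ntrk2), and Nptx2 encodes a secreted pentraxin that clusters AMPA receptors. In the nucleus accumbens most neurons are inhibitory spiny projection neurons that carry either the dopamine receptor Drd1 or the adenosine receptor Adora2a, and much of the BDNF protein of the striatum is known to arrive from cortical axons.

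By the GENCODE M21 annotation of GRCm38, the genes lie apart on 6 chromosomes: Arc at chr15:74669083-74672570 on the minus strand, Npas4 at chr19:4984355-4990316 on the minus strand and Homer1 at chr13:93299635-93405129 on the plus strand. Bdnf lies at chr2:109674700-109727007 on the plus strand, Nptx2 at chr5:144545902-144557478 on the plus strand and Ier5 at chr1:155096361-155099636 on the minus strand. To show what an activity-response promoter looks like, the 200 bases before each RefSeq transcription start of the genes (GRCm38.p6) were searched for TGACGT or its reverse complement ACGTCA, the core of the cAMP response element to which CREB binds. Of the 6 genes 4 had an entry, with 11 starts in all, and 3 of the 11 windows held a match, as did 5.85% of 32851 windows in the table. The Npas4 window held 2 matches, but an Npas4 exon of the GENCODE annotation overlaps this window. That leaves 2 windows with a match outside exons. Homer1 held 3 before the first of its 2 starts, and Bdnf held 1 before the third of its 7 starts. The Homer1 and Bdnf windows (chr13:93303557-93303756 and chr2:109692236-109692435, both on the plus strand) are printed from 5′ to 3′ with the matches in capitals, since these 2 genes differed in opposite directions between neuron classes.
Homer1: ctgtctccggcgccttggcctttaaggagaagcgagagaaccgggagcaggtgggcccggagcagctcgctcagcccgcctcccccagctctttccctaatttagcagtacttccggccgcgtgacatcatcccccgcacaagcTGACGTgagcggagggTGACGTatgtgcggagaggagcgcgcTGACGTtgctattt
Bdnf: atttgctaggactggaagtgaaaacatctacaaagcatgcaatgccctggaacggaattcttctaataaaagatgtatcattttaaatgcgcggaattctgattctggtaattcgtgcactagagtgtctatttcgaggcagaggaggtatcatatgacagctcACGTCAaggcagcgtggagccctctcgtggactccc
A match of letters is a description of the window and not evidence of binding in these cells. The counts come from the 3′ ends of transcripts and are summed per gene, so neither the starts of Bdnf nor the long and short forms of Homer1 were told apart.

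The 3 libraries are numbered by the suffix of their cell barcodes, which is only a name. They held 2717, 6627 and 2281 deposited cells. After filtering, 2306, 5783 and 1834 cells with 2788685, 14563414 and 6267259 UMIs (molecular tags, each counting 1 RNA molecule once) remained, of which 874, 3537 and 897 were neurons with a median of 1003, 2429 and 2564 UMIs. Library 1 was therefore the shallowest, and its sums carry the widest counting error. Pairs of libraries shared 6 to 15 barcode sequences among the cells kept. Neurons were gated cell by cell on markers, which do not include the 6 genes. The Drd1 gate held 95, 836 and 230 cells in libraries 1 to 3, the Adora2a gate 154, 573 and 188, and the glutamatergic gate, of cells with Slc17a7 and other markers of cortical-type excitatory neurons, 64, 195 and 75. Pvalb interneurons numbered 11, 28 and 7, and Sst-Npy interneurons 7, 26 and 3. A further 2710 neurons passed no gate and 100 passed several. The spiny gates were checked on peptide genes that they do not use. Tac1, a peptide gene of Drd1 neurons, reached 1741, 2760 and 2124 CPM (the usual unit of counts scaled by library total, here the UMIs of a class in a library) in the Drd1 gate and 227, 296 and 162 CPM in the Adora2a gate. Penk, a peptide gene of Adora2a neurons, reached 228, 666 and 1573 CPM in the former and 6708, 7811 and 9293 CPM in the latter. Drd2 itself was nearly absent from the table, with 0, 4.38 and 1.55 CPM in the Adora2a gate.

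Across the 9923 cells the genes were sparse. Homer1 had a UMI in 2504 cells, Ier5 in 2013, Arc in 787, Nptx2 in 692, Npas4 in 320 and Bdnf in 210. Neurons held 94.5% of the Homer1 UMIs, 93.8% of those of Nptx2, 91.9% of Npas4 and 88.2% of Arc, but 79.6% of Bdnf and 66.9% of Ier5. Below, levels are given as CPM of summed UMIs per class and library, with the mean ± SD over the 3 libraries, and shares as the percentage of cells with at least 1 UMI, also after each cell was thinned to 1000 UMIs so that depths are alike. Thinning left out 37, 13 and 7 Drd1, 65, 9 and 5 Adora2a, and 14, 0 and 1 glutamatergic cells of libraries 1 to 3. Intervals are exact 95% ones (Poisson for sums, Clopper-Pearson for shares) and cover counting error only.

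**Figure D1:**
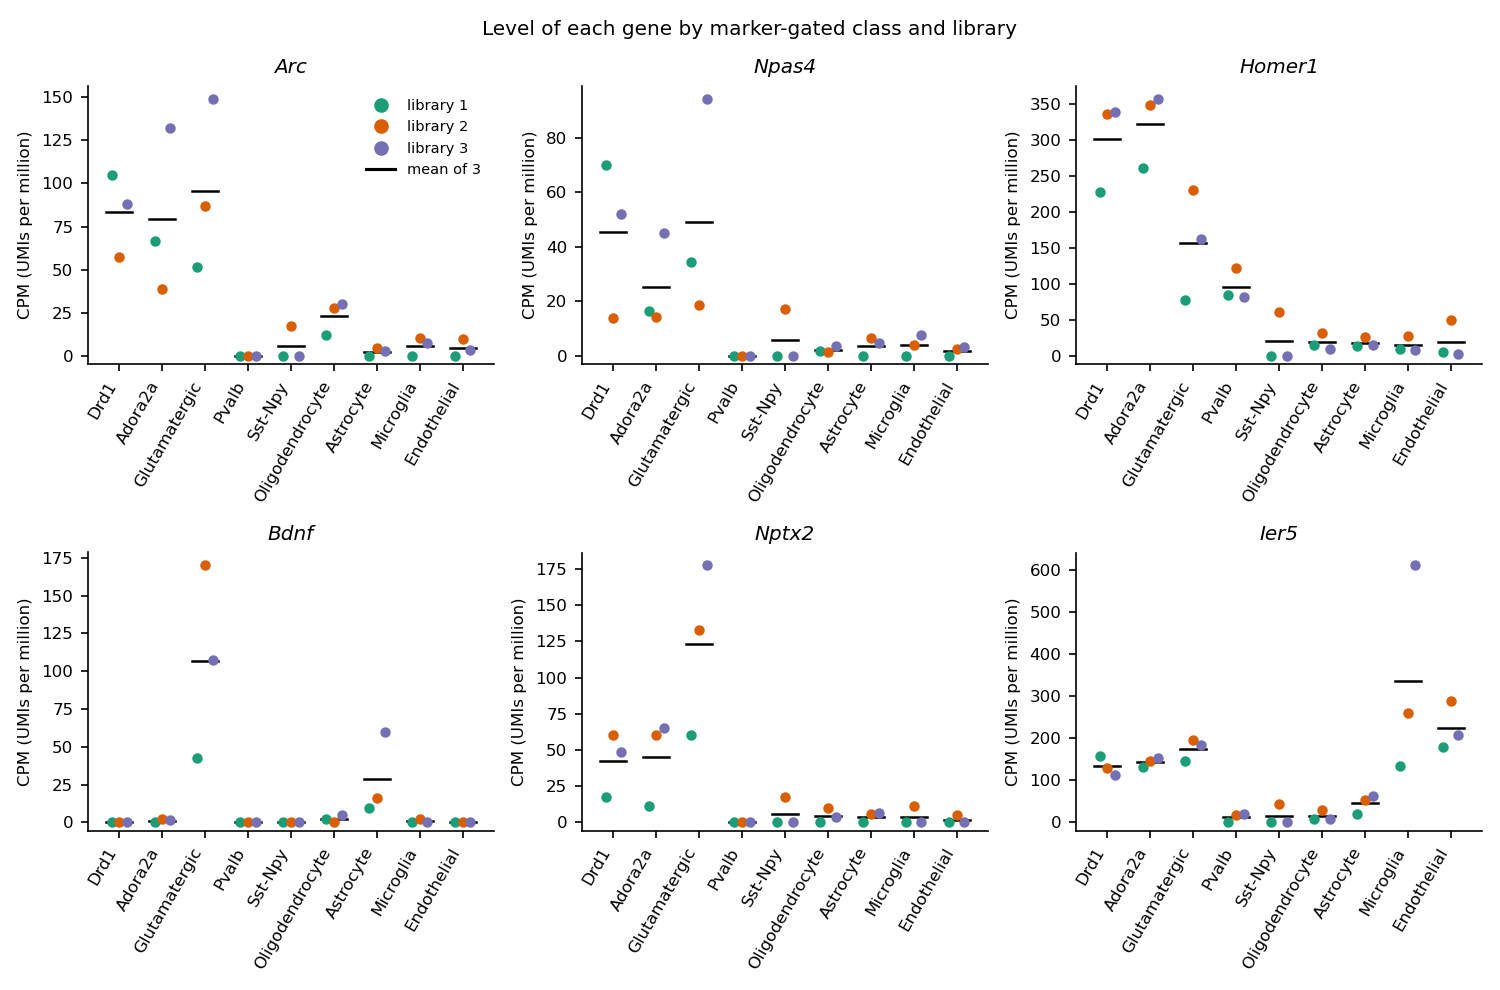
Level of each gene (CPM, linear axis, own scale per panel) in 5 neuron and 4 non-neuronal classes. Points are the 3 libraries and bars their mean; Arc, Npas4 and Nptx2 were found in the Drd1, Adora2a and glutamatergic classes and at 0 in Pvalb neurons, Bdnf was found in glutamatergic neurons and astrocytes, and Ier5 was also high in microglia and endothelial cells.

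The transcription factor Npas4 reached 70.0, 13.8 and 52.2 CPM in the Drd1 neurons of libraries 1 to 3 (45.4 ± 28.7, SD, n = 3 libraries). In Adora2a neurons it reached 16.6, 14.2 and 45.1 CPM (25.3 ± 17.1), and in glutamatergic neurons 34.3, 18.5 and 94.2 CPM (49.0 ± 39.9). Library 2, the largest, was the lowest in each of these 3 classes, so the spread of Npas4 lay between libraries and the ranges of all 3 classes overlapped. Unthinned, 7.37%, 4.07% and 14.3% of Drd1, 1.95%, 4.19% and 11.2% of Adora2a and 4.69%, 7.18% and 24% of glutamatergic neurons had an Npas4 UMI. At 1000 UMIs per cell the shares were 5.17% (interval 1.08% to 14.4%), 1.82% (1.02% to 2.99%) and 5.83% (3.14% to 9.76%). The thinned share in Adora2a neurons was 2.25%, 1.06% and 3.83% (upper limits 7.88%, 2.30% and 7.72%). In glutamatergic neurons it was 6%, 2.05% and 9.46%, again with the lowest value in library 2. Oligodendrocytes, at a median of 948, 2146 and 4082 UMIs, showed Npas4 in 0 cells after thinning and in 0.218%, 0.341% and 1.19% before it, below the neuronal shares of the same library. The median depth of Drd1 neurons was 1136, 2909 and 3241 UMIs.

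Arc reached 105, 57.7 and 88.2 CPM in Drd1 neurons (83.6 ± 24.0, SD, n = 3 libraries). It reached 66.5, 38.8 and 132 CPM in Adora2a neurons (79.1 ± 47.9) and 51.5, 87.2 and 149 CPM in glutamatergic neurons (95.9 ± 49.4). The order of the 3 classes differed from library to library, with Drd1 highest in library 1 and glutamatergic neurons highest in libraries 2 and 3, and all ranges overlapped. Thinned, Arc was found in 10.3% (interval 3.89% to 21.2%), 4.86% (3.49% to 6.56%) and 9.42% (5.92% to 14.0%) of Drd1 neurons. In Adora2a neurons the thinned shares were 4.49% (1.24% to 11.1%), 3.19% (1.90% to 5%) and 14.8% (9.95% to 20.7%). In glutamatergic neurons they were 2%, 9.74% and 10.8%. Without thinning, the shares were 9.47%, 12.6% and 21.3% in Drd1, 6.49%, 10.5% and 29.3% in Adora2a and 7.81%, 29.2% and 44% in glutamatergic neurons. Most Drd1 neurons with Arc had 1 UMI of it (70.6% of 163 cells), and the highest held 5, so no small group of cells carried the count.

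Homer1 was highest in spiny neurons. It reached 228, 336 and 339 CPM in Drd1 neurons (301 ± 63.5, SD, n = 3 libraries) and 261, 349 and 357 CPM in Adora2a neurons (322 ± 53.6). In glutamatergic neurons it reached 77.2, 231 and 162 CPM (157 ± 77.1), below both spiny classes in each library. Pvalb neurons had 84.4, 123 and 82.4 CPM, on 2, 14 and 4 UMIs. Sst-Npy neurons had 60.9 CPM in library 2, on 7 UMIs, and 0 UMIs in the 7 and 3 cells of the other libraries. Thinned shares in Drd1 neurons were 20.7% (interval 11.2% to 33.4%), 27.9% (24.9% to 31.1%) and 31.4% (25.4% to 37.9%), against 6% (1.25% to 16.5%), 24.1% (18.3% to 30.7%) and 10.8% (4.78% to 20.2%) in glutamatergic neurons. In libraries 1 and 2 these intervals overlapped. Adora2a neurons had 19.1%, 30.3% and 25.7% after thinning. Unthinned, 25.3%, 54.4% and 66.1% of Drd1, 23.4%, 62.0% and 62.8% of Adora2a, 14.1%, 62.1% and 64% of glutamatergic and 18.2%, 35.7% and 42.9% of Pvalb neurons had a Homer1 UMI, so without thinning the deeper glutamatergic cells of libraries 2 and 3 came close to the spiny ones. Oligodendrocytes gave 1.99%, 3.20% and 0.615% after thinning and 1.75%, 7.34% and 3.26% before it.

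Nptx2 reached 17.5, 60.3 and 48.7 CPM in Drd1 neurons (42.2 ± 22.2, SD, n = 3 libraries) and 11.1, 60.2 and 65.2 CPM in Adora2a neurons (45.5 ± 29.9). In glutamatergic neurons it reached 60.1, 133 and 178 CPM (124 ± 59.3), above both spiny classes within each library, although the lowest glutamatergic value, that of library 1, lay within the spiny range. Library 1 was the lowest in all 3 classes, on 2, 2 and 7 UMIs. The thinned share followed the same order, with 1.72%, 5.47% and 4.48% of Drd1, 2.25%, 6.56% and 6.01% of Adora2a and 4%, 15.4% and 21.6% of glutamatergic neurons (for these last, upper limit 13.7%, interval 10.6% to 21.2%, and 12.9% to 32.7%). Before thinning, 2.11%, 15.2% and 13.9% of Drd1, 1.30%, 15.7% and 17.6% of Adora2a and 6.25%, 40.5% and 48% of glutamatergic neurons had an Nptx2 UMI. In oligodendrocytes the thinned share was 0%, 0.565% and 0.615%.

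Bdnf was nearly absent from spiny neurons. Drd1 neurons held 0, 1 and 0 UMIs and Adora2a neurons 0, 4 and 1, which is 6 UMIs in 2076 cells. Glutamatergic neurons held 5, 156 and 49 UMIs, or 42.9, 170 and 107 CPM (107 ± 63.6, SD, n = 3 libraries). The groups did not overlap in any library, and the ratio of the summed levels, glutamatergic over spiny, was 146 (counting interval 66.1 to 403). Bdnf had a UMI in 7.81%, 34.4% and 26.7% of glutamatergic neurons, and at 1000 UMIs in 4% (interval 0.488% to 13.7%), 13.3% (8.90% to 18.9%) and 6.76% (2.23% to 15.1%). At that depth it was found in 0 of 58, 0 of 823 and 0 of 223 Drd1 neurons, with upper limits of 6.16%, 0.447% and 1.64%. Neurons that passed several gates held 2, 34 and 54 Bdnf UMIs in 6, 59 and 35 cells, and neurons that passed no gate held 0, 16 and 5 in 537, 1814 and 359 cells.

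Ier5 was found at close levels in these 3 neuron classes. It reached 158, 131 and 113 CPM in Drd1 neurons (134 ± 22.6, SD, n = 3 libraries), 133, 146 and 152 CPM in Adora2a neurons (144 ± 9.80) and 146, 196 and 184 CPM in glutamatergic neurons (175 ± 26.3). The ranges of the 3 classes overlapped pairwise. At 1000 UMIs the shares were 19.0%, 10.7% and 8.97% in Drd1, 8.99%, 13.5% and 13.7% in Adora2a and 20%, 17.4% and 16.2% in glutamatergic neurons. Unthinned, they were 14.7%, 31.7% and 30.0% in Drd1, 13.6%, 36.0% and 31.9% in Adora2a and 20.3%, 51.3% and 57.3% in glutamatergic neurons. In oligodendrocytes the thinned shares were 0%, 2.82% and 0.615%.

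The first comparison asked whether the 2 spiny classes differed, and none of the 6 genes did. Between Drd1 and Adora2a neurons 0 of 6 passed an adjusted p of 0.05 in edgeR, which called 0.855% of 9243 genes there (79 genes, and 457 at an unadjusted p under 0.05). DESeq2 also called 0 of 6, and 45 genes in all. Only Bdnf had an unadjusted p under 0.05 in edgeR (0.0371, adjusted p = 0.930), with a log2 fold change of -2.21 that rests on its 6 UMIs. Bdnf passed the low-count filter only through its glutamatergic sums, so with so few spiny UMIs its test can decide little here. The log2 fold change, Drd1 over Adora2a, was 0.034 for Arc (95% interval -0.46 to 0.53), 0.24 for Npas4 (-0.37 to 0.86) and -0.13 for Homer1 (-0.50 to 0.23). For Nptx2 it was -0.14 (-0.61 to 0.32) and for Ier5 -0.25 (-0.63 to 0.14). The intervals leave room for differences in either direction, widest for Npas4 among these 5 genes. With the library as block, the p-values measure how far class differences varied between these 3 libraries, which may be technical. That spread was estimated over all classes in the fit.

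**Figure D2:**
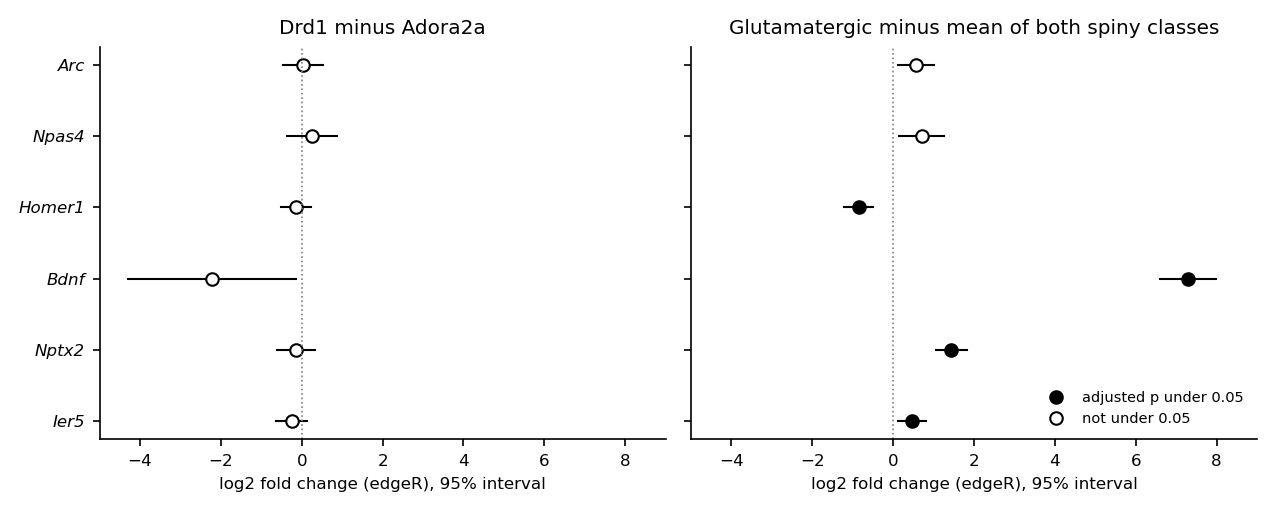
Fitted log2 fold change of each gene with its 95% interval, Drd1 over Adora2a neurons on the left and glutamatergic neurons over the mean of both spiny classes on the right (edgeR, 3 libraries; filled points have an adjusted p under 0.05). On the left 0 of 6 points are filled, and on the right 4 are, with Homer1 on the negative side.

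Glutamatergic neurons differed from the mean of both spiny classes in 4 of the 6 genes, 3 higher and 1 lower, where edgeR called 25.7% of all genes tested (15% higher and 10.7% lower). Bdnf was higher by 7.28 on the log2 scale (SE 0.34, edgeR adjusted p = 8.73e-18) and Nptx2 by 1.44 (SE 0.19, edgeR adjusted p = 2.19e-07), each in 3 of 3 libraries. Bdnf passed the low-count filter only through these high glutamatergic sums, so its p-value and calls are not separate support for the counts above. Homer1 fell by 0.85 (SE 0.17, edgeR adjusted p = 0.000234) and was lower in 3 of 3 libraries. Ier5 was higher by 0.47 (SE 0.17, edgeR adjusted p = 0.0347), but its difference in library 1 was 0.0099 on the log2(CPM + 10) scale, and it lost its call with DESeq2, without library 2, without library 3 and under 3 further alternatives, with adjusted p from 0.00220 to 0.450 over all edgeR and DESeq2 alternatives. Arc, at 0.57 (SE 0.22, edgeR adjusted p = 0.0530), and Npas4, at 0.70 (SE 0.27, edgeR adjusted p = 0.0561), did not pass. Without library 1, in which both were lower in glutamatergic neurons, all 6 genes passed. Bdnf and Nptx2 kept direction and call under every alternative that tested them, which for Bdnf leaves out the one with interneuron gates first, where it was too low to be tested (log2 fold change 6.43 to 7.39 and 1.22 to 1.74), and Homer1 lost its call when the library was left out of the model (edgeR adjusted p = 0.0569).

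In Pvalb interneurons 4 of the 6 genes were lower than in spiny neurons, where edgeR called 11.3% of all genes (6.62% lower). The fit used libraries 1 and 2, the ones with at least 10 such cells. Over all 46 Pvalb cells, Arc and Nptx2 had 0 UMIs, which against a floor of 3 UMIs over the group is at least 4.05-fold lower for Arc (edgeR adjusted p = 0.0168) and at least 3.54-fold lower for Nptx2 (edgeR adjusted p = 0.00924). DESeq2 did not call Nptx2 (DESeq2 adjusted p = 0.136), and Arc stood at its threshold there (DESeq2 adjusted p = 0.0499). Ier5, on 3 UMIs, had a log2 fold change of -3.37 (SE 0.67, edgeR adjusted p = 0.000431), and Homer1 fell by 1.67 (SE 0.37, edgeR adjusted p = 0.00179). Npas4 also had 0 UMIs but missed the threshold (edgeR adjusted p = 0.173). The floor lay only 1.47-fold below its level in spiny neurons, so a difference is not shown. Bdnf had 0 UMIs too, and with spiny neurons themselves below the floor no fold is given. Without library 2, which holds 28 of the cells, 0 of 6 passed in edgeR, and with a looser gate 1 did. When interneuron gates were applied before the others, a choice made after the data were seen, the Pvalb gate held 11, 47 and 14 cells. It was then no longer empty of Arc, with 0, 1 and 7 UMIs. All 5 of the genes tested there were called lower in edgeR, which called 1536 of 5389 genes, 719 of them lower. This wider gate took in neurons that had also passed other gates, and it held 0, 6 and 6 Bdnf UMIs. Whether its Arc UMIs come from Pvalb neurons was not tested.

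Sst-Npy interneurons reached 10 cells only in library 2. The fit assumes that this lone sum varies like those of the other classes, so the p-values hold no spread between Sst-Npy samples. Homer1, on 7 UMIs, had a log2 fold change of -2.56 against spiny neurons (SE 0.49, edgeR adjusted p = 0.000577), the 1 gene of 6 that passed where 5.71% of all genes were called (2.75% lower). With the library left out of the model 0 of 6 passed (Homer1 edgeR adjusted p = 0.0515). Arc, Npas4 and Nptx2 had 2 UMIs each and Ier5 5 in those 26 cells, and Bdnf had 0. With interneuron gates applied first, Sst-Npy cells of library 3 numbered 9 and held 8 Npas4 and 4 Arc UMIs, so the levels of these genes in interneurons rest on few cells.

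The same fit was read for 3 lists of related genes, described by counts. Among 21 rapid activity genes, mainly transcription factors of the Fos, Jun, Egr and Nr4a families, 16 were tested, and 5 were higher and 1 lower in glutamatergic than in spiny neurons (15% and 10.7% of all genes), with a median log2 fold change of 0.18 against -0.0090 over all genes. Nr4a2 (5.21, SE 0.45), an orphan nuclear receptor, Ier2 (2.48, SE 0.32), Btg2 (2.07, SE 0.25), an antiproliferative cofactor, and Fos (1.07, SE 0.19) were higher and Egr4 (-0.81, SE 0.20) was lower, each in 3 of 3 libraries (edgeR adjusted p from 6.52e-12 to 0.00256). Dusp1 was the fifth higher gene, in 2 of 3 libraries. Of 22 other activity-response genes 14 were tested, with 3 higher and 6 lower, against the same 15% and 10.7%. Like Nptx2, its relative Nptx1 was higher (2.45, SE 0.30), whereas Rgs2, a regulator of G protein signalling (-1.83, SE 0.18), Rgs4 (-1.22, SE 0.33), the granin Scg2 (-0.89, SE 0.18), Arl4d (-0.85, SE 0.21) and Vgf (-0.71, SE 0.18) were lower (edgeR adjusted p from 3.55e-10 to 0.0207). Between Drd1 and Adora2a neurons 0 genes of either list passed in edgeR (1 and 2 at an unadjusted p under 0.05) or in DESeq2.

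The third list held 20 proteins that work with the 6 genes' products, of which 18 were tested and 8 were higher and 3 lower in glutamatergic neurons, where 15% and 10.7% of all genes were. Partners of Homer1 moved in both directions. Homer2 (3.09, SE 0.42) and the postsynaptic scaffolds Dlgap1 (2.84, SE 0.16) and Shank1 (2.32, SE 0.28) were higher in glutamatergic neurons. The receptor Grm5, to which Homer1 binds, was lower (-1.50, SE 0.18), as Homer1 was. The pentraxin receptor Nptxr was higher (3.86, SE 0.16), as Nptx2 was, and so was the kinase Camk2a (1.28, SE 0.14), whereas the BDNF receptor Ntrk2 stood at 0.13 (SE 0.16, edgeR adjusted p = 0.641). The edgeR adjusted p of the 6 called partners named here ranged from 4.33e-20 to 3.51e-07. Between Drd1 and Adora2a neurons 0 partners passed in edgeR (3 at an unadjusted p under 0.05) or in DESeq2. In Pvalb neurons 4 of 16 rapid genes, 4 of 14 other activity genes and 6 of 18 partners were lower and 0, 1 and 3 were higher in edgeR, where 11.3% of all genes were called (6.62% lower). DESeq2 called 2, 5 and 6 of them in either direction, and 824 of 9243 genes in all.

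Within a class, correlations between the 6 genes from cell to cell were weak. At 1000 UMIs the median Pearson r over the pairs of genes that could be computed was 0.0025 in Drd1 neurons of library 2 (823 cells) and 0.051 in library 3 (223 cells). It was 0.0089 and 0.0033 in Adora2a neurons (564 and 183 cells) and 0.00057 in glutamatergic neurons of library 2 (195 cells). Library 1 had fewer than 100 cells in each class and was not used. Summed over all pairs, Drd1 neurons with both genes numbered 69 in library 2, where independent detection would give 67.0, and 33 in library 3, where it would give 26.8. At 2000 UMIs per cell the sums were 210 against 176.3 and 88 against 71.35, with a median r of 0.0243 and 0.0136. These r are descriptions of sparse counts that share library and depth, and values this close to 0 are no finding.

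The counts of single pairs depended on the depth. For Arc and Npas4 the value was larger at the greater depth: with 2000 UMIs per Drd1 neuron, r between them was 0.133 and 0.373 in libraries 2 and 3, and 13 cells had both, where independent detection would give 4.68. At 1000 UMIs the pair was found together in 2 cells, where 1.95 would be given, with r from 0.0073 to 0.064. Nptx2 and Ier5 also went from 5 Drd1 neurons with both, where 5.71 would be given, to 22, where 17.5 would. In Adora2a neurons this pair was below independent detection at 1000 and at 2000 UMIs, with 2 against 6.49 and 11 against 15.8. Arc and Homer1 were found together at 1000 UMIs in 25 Drd1 neurons, where 17.8 would be given, and in 18 Adora2a neurons, where 12.4 would, with more than the product of shares in both libraries of each class. At 2000 UMIs this excess was 54 against 46.1 in Drd1 neurons (r from 0.0042 to 0.013) and was absent in Adora2a neurons, with 30 against 30.4. At 1000 UMIs none of the 6 was found in 51.7%, 57.1% and 54.3% of Drd1 neurons, 69.7%, 53.7% and 53.0% of Adora2a neurons and 66.0%, 43.1% and 47.3% of glutamatergic neurons in libraries 1 to 3. No cell of these classes had more than 4 of the 6.

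Set beside the 21 rapid genes in the same cell, the genes differed in how far they went with them. Drd1 neurons with Arc held 3.23 and 4.10 UMIs of the rapid genes on average in libraries 2 and 3, against 1.69 and 1.96 in those without it, at 1000 UMIs per cell. Adora2a neurons with Arc held 3.94 and 4.33 against 1.77 and 2.62. Cells with Arc were thus higher in the 4 spiny sets, with r from 0.197 to 0.318, whereas in glutamatergic neurons of library 2 they held 1.90 against 2.05 (r = 0.0856). At 2000 UMIs glutamatergic neurons with Arc were higher too, at 6.32 against 3.76 (r = 0.31). Npas4 went the same way in all 5 sets, with 3.13 against 1.74 and 3.31 against 2.09 in Drd1 neurons, 2.33 against 1.84 and 6.29 against 2.73 in Adora2a neurons and 5 against 1.97 in glutamatergic neurons, on few cells with Npas4 in each. Homer1 differed less, for example 1.87 against 1.72 and 2.44 against 2.03 in Drd1 neurons. In Drd1 neurons Nptx2 differed in direction between the libraries, at 2.20 against 1.74 and 1.60 against 2.18, and Ier5 was slightly lower in both, at 1.75 against 1.77 and 2.05 against 2.17. At 2000 UMIs both genes were higher in Drd1 neurons of both libraries, with Nptx2 at 4.40 against 3.47 and 5.18 against 4.08 and Ier5 at 3.85 against 3.46 and 4.34 against 4.15. Adora2a neurons with Ier5 then stood at 3.155 against 3.758 in library 2 and 5.97 against 5.45 in library 3. Glutamatergic neurons of library 2 with Ier5 were higher already at 1000 UMIs, at 2.79 against 1.87.

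**Figure D3:**
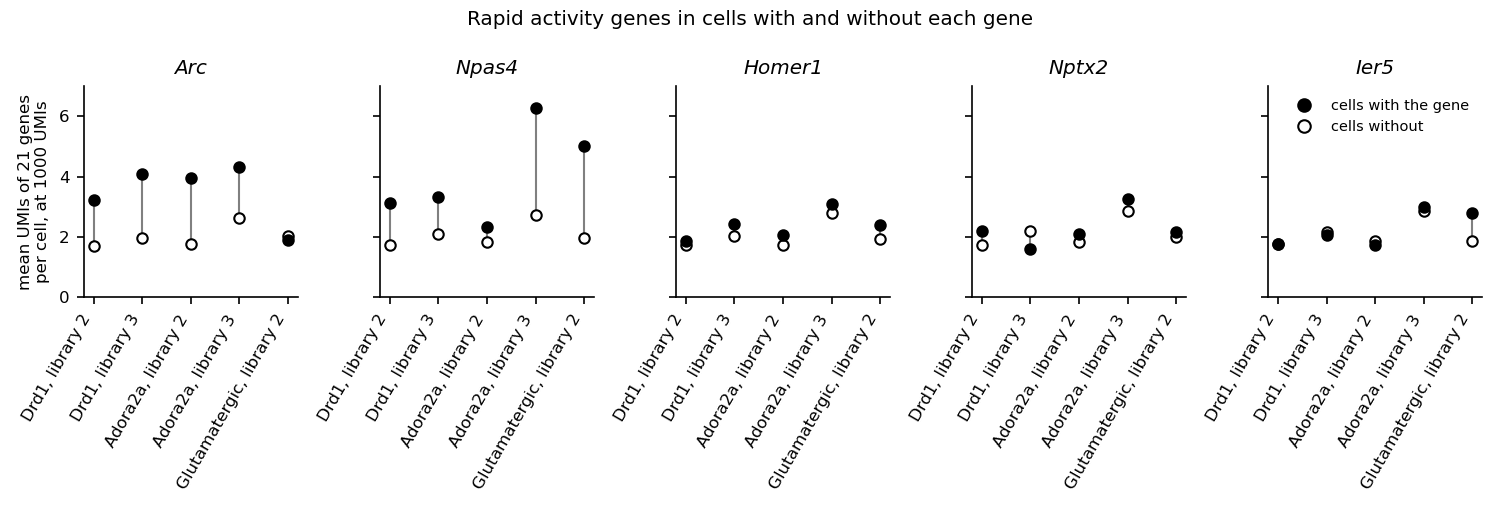
Mean UMIs per cell of the 21 rapid activity genes, at 1000 UMIs per cell, in cells with (filled) and without (open) each gene, for the 5 sets of at least 100 cells; Bdnf is not drawn because spiny neurons held 0 UMIs of it at this depth. For Arc the filled points lie above the open ones in the 4 spiny sets, and the gap is widest for Npas4 in Adora2a neurons of library 3 and glutamatergic neurons of library 2.

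The next comparison asked whether spiny neurons marked by the recorder differed in the 6 genes. Spiny neurons with at least 1 mCherry UMI numbered 13, 327 and 62, against 236, 1082 and 356 without one. They were deeper (median 1244, 3456 and 4383 UMIs against 1096, 2795 and 2822) and more often of the Drd1 gate (46.2%, 65.8% and 67.7% against 37.7%, 57.4% and 52.8%), and the part of the Drd1 share in the values was not tested. Arc reached 0, 46.9 and 97.1 CPM in cells with mCherry and 86.9, 51.0 and 109 CPM in those without it. Npas4 reached 0, 13.2 and 31.2 against 39.8, 14.3 and 53.4 CPM, and Homer1 109, 337 and 305 against 257, 343 and 357 CPM. These 3 genes were lower with the reporter in each library, but in library 1 the 13 cells held 0 UMIs of Arc, 0 of Npas4 and 2 of Homer1. Nptx2 reached 0, 59.3 and 45.1 against 14.5, 60.6 and 58.3 CPM. Ier5 reached 164, 120 and 93.6 against 141, 143 and 138 CPM, lower in libraries 2 and 3 only. Bdnf had 0 UMIs in the 402 cells with mCherry and 6 in the 1674 without.

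None of these differences passed. Of the 5 genes tested (Bdnf was too low), 0 were called, where edgeR called 0% of 8425 genes (523 at an unadjusted p under 0.05) and DESeq2 called 0 (20 at an unadjusted p under 0.05). The log2 fold change, with over without mCherry, was -0.16 for Arc (95% interval -0.56 to 0.24), -0.43 for Npas4 (-1.09 to 0.23) and -0.085 for Homer1 (-0.33 to 0.16). For Nptx2 it was -0.086 (-0.47 to 0.30). Ier5, at -0.30 (-0.58 to -0.011), was the 1 gene of 5 with an unadjusted p under 0.05 (0.0425, edgeR adjusted p = 0.788). Against cells without mCherry matched on UMIs (median 1217, 3441 and 4405), 4 of the genes were tested and 0 were called by edgeR (127 of all genes at an unadjusted p under 0.05). Of the 3 lists, 14 rapid genes, 17 other activity genes and 16 partners were tested for the reporter, and 0 passed in edgeR (3, 3 and 0 at an unadjusted p under 0.05) or in DESeq2.

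**Figure D4:**
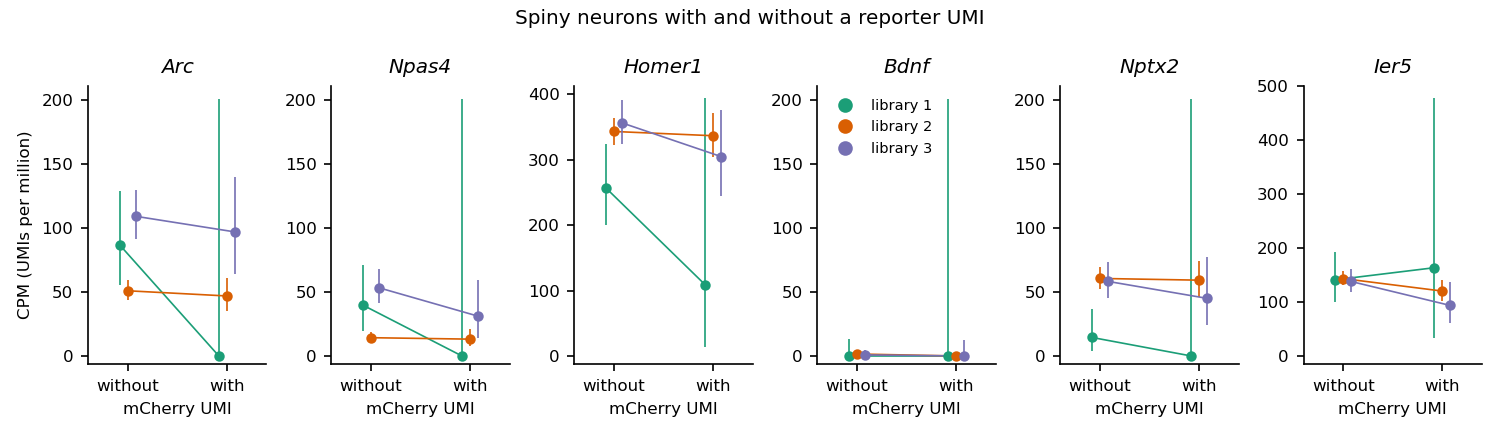
Level of each gene (CPM, linear axis, own scale per panel) in spiny neurons without and with an mCherry UMI, joined within each of the 3 libraries; bars are exact 95% Poisson intervals. The bars of the 13 cells of library 1 with mCherry are the widest, and in libraries 2 and 3 the intervals of the paired points overlap for all 6 genes.

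Outside neurons the 6 genes did not behave alike. Ier5 reached 134, 261 and 612 CPM in microglia and 179, 288 and 209 CPM in endothelial cells, within or above its range in neurons, and 20.9, 52.8 and 63.2 CPM in astrocytes. At 1000 UMIs it was found in 7.63%, 18.1% and 29.2% of microglia. Library 3 stood highest in microglia, on 157 UMIs in 126 cells. Microglia with Ier5 held the 8 pan-neuronal markers at 58.05, 1203 and 475 CPM in libraries 1 to 3, and those without it at 218, 1201 and 220.0 CPM. The markers were thus lower with Ier5 in library 1, close in library 2 and higher in library 3, and their part in the Ier5 values was not tested.

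Bdnf reached 9.52, 16.4 and 60.1 CPM in astrocytes, on 5, 22 and 38 UMIs, more than in spiny neurons of the same libraries. The 46 astrocytes with Bdnf held the pan-neuronal markers at 510 CPM and the glutamatergic markers at 25.9 CPM, against 712 and 18.5 CPM in the 875 without it. They were deeper, with a median of 4700 against 2016 UMIs. Their astrocyte markers stood at 7585, 8067 and 7341 CPM in libraries 1 to 3, against 9240, 9428 and 9934 CPM without Bdnf. The part of these differences in the Bdnf values was not tested. After thinning, Bdnf was found in 0.448%, 1.67% and 6.12% of astrocytes. Endothelial cells held 0 UMIs of Bdnf in all 3 libraries.

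Arc reached 11.9, 27.9 and 30.0 CPM in oligodendrocytes and 0, 4.46 and 3.16 CPM in astrocytes. The pan-neuronal markers stood at 236, 909 and 243 CPM in the former and 124, 1073 and 359 CPM in the latter. Their part in the Arc values was not tested. For each Homer1 UMI, oligodendrocytes held 0.750, 0.889 and 3.31 Arc UMIs, on 8, 45 and 13 Homer1 UMIs. The value was 0.329, 0.146 and 0.308 in spiny neurons and 0.667, 0.377 and 0.919 in glutamatergic neurons. Homer1 itself was at 18.8 ± 11.4 CPM in oligodendrocytes and 18.6 ± 7.15 CPM in astrocytes (SD, n = 3 libraries). In libraries 2 and 3 oligodendrocytes with Arc held the pan-neuronal markers at 1158 and 219 CPM and those without it at 886 and 248 CPM. In library 1 the 6 oligodendrocytes with Arc stood apart, at 2106 against 191 CPM. At equal depth Arc was found in 1.99%, 2.64% and 2.77% of oligodendrocytes and in 0%, 0.239% and 0.680% of astrocytes.

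For each gene, genes among the 3 with the most similar profile are given over the 12 sums of class and library used in the fit (Pearson r of log2(CPM + 10), 9243 genes). Bdnf was closest to Igfn1 (0.985), Emx1 (0.983), a transcription factor of the dorsal telencephalon, and Nrn1 (0.976). Ier5 was closest to the synaptic scaffold gene Dlg1 (0.991) and to Zfp365 (0.988). Nptx2 was closest to Trim9 (0.959), Ppp2r2b (0.958) and Prps2 (0.939), and Homer1 to Slmap (0.952), Hnrnpu (0.950) and Dtnbp1 (0.946). Rfx3 (0.954) and Mycbp2 (0.953) were among the 3 closest to Arc, and Papolg (0.928) and Psmd1 (0.911) among the 3 closest to Npas4. None of the 6 was among the closest genes of another. The sums share 3 libraries, and the best of 9243 genes over 12 sums is high by selection, so these r are a description only.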

How the data were processed

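The authors deposited whole UMI counts per gene and cell in 1 pooled table, made with version 2 of the 10x Genomics 3′ kit, per the labels, and with Cell Ranger 3.0 on mm10, per the submitters' processing notes. The table holds 3 added features, mCherry, TEV and tTA. The annotation release, the cell calling and any equalizing of depth between libraries are not given in the sources used here. The barcode suffix separates 3 libraries and is not tied to a labelled replicate.

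Of 11625 cells, the 10291 with 300 genes or more and a mitochondrial share of 20% or less were used. Scrublet (in scanpy 1.11.5, with an expected rate of 0.06) scored doublets within each library, and the highest scores were removed at 0.8% per 1000 cells (44, 296 and 28 cells), leaving 9923 cells with 5308 neurons. No clustering was used. A neuron needed at least 3 pan-neuronal UMIs and more of them than of the non-neuronal lists, a spiny gate at least 2 UMIs of its markers and 80% of the spiny ones, and the Sst-Npy gate 10 UMIs.

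UMIs were summed per library and class (at least 10 cells) and tested in 1 fit by the edgeR 4.0.16 quasi-likelihood test in R 4.3.3 (robust = TRUE, legacy = FALSE, TMM, filterByExpr, library as block, Benjamini-Hochberg at 0.05 over all genes). In the alternative with interneuron gates first, a sum needed only 5 cells. The block follows from the design, since the classes of 1 library come from the same cell suspension. Standard errors are the log2 fold change over the root of F. DESeq2 1.42.0 was an alternative. The fit was tested on simulated data. Named genes are the 6, up to 6 per list and contrast with the largest change among those called with the same sign in 3 libraries, and the 3 closest profiles, of which some are not reported here. Other genes named were chosen after their values were seen. The 6 genes, the lists and the gates were chosen with earlier results of these data known.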

Additional observations from a re-analysis of the deposited data

Results flagged for a closer look

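The difference between spiny neurons with and without the reporter had opposite signs in the 2 spiny classes for 2 genes, in libraries 2 and 3, the ones with at least 10 reporter-positive cells in each class. For Npas4, Drd1 neurons with mCherry reached 11.4 and 20.6 CPM against 14.9 and 61.4 CPM without it (-0.22 and -1.23 on the log2(CPM + 10) scale), and Adora2a neurons 16.5 and 53.3 against 13.5 and 43.7 CPM (0.17 and 0.24). The means of the classes differed by -0.925. For Arc, Drd1 neurons with mCherry reached 50.7 and 77.1 against 60.7 and 91.4 CPM (-0.22 and -0.22), and Adora2a neurons 40.0 and 138 against 38.5 and 131 CPM (0.044 and 0.075), a difference of -0.28. The Npas4 values rest on 9 and 4 UMIs in Drd1 and 7 and 5 UMIs in Adora2a neurons with mCherry. The difference was not tested, and in library 1, with 6 and 7 such cells, both genes had 0 UMIs with mCherry in both classes.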

How the results depend on the processing

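The count of the 6 genes called was 0 between Drd1 and Adora2a neurons and 0 for the reporter under every alternative run (edgeR or DESeq2). For glutamatergic against spiny neurons it ranged from 3 to 6 on leaving out single libraries. It was 2 of 5 tested with interneuron gates first, where edgeR called 1621 of 5389 genes. For Pvalb it ranged from 0 to 4 on leaving out single libraries and was 1 with the looser gate. For Sst-Npy it was 3 of 5 tested with interneuron gates first, where edgeR called 1079 of 5389 genes. Sums of 9, 32 and 9 cells were used there because the minimum was lowered to 5 cells. Leaving out library 2 left no Sst-Npy sum. With no replicate block (library left out of the model) it was 2 for glutamatergic, 3 for Pvalb and 0 for Sst-Npy neurons, and counts of all genes called were 27 between Drd1 and Adora2a, 1314 for glutamatergic and 342 for Sst-Npy neurons. Genes called otherwise numbered 45 (DESeq2) and 23 to 130 (each library left out) between Drd1 and Adora2a, and 966 to 2934 for glutamatergic neurons with each library left out. They numbered 419 (looser gate) and 101 to 835 (each library left out) for Pvalb, 327 (gate with peptides) and 1079 (interneuron gates first) for Sst-Npy, and for the reporter 3 with no low-count filter, 7 with no TMM scaling, 3 with the package-default spread and 0 to 3 with each library left out.

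Of the log2 fold changes of the 6 genes under alternatives, 301 kept direction and call, 18 lost and 9 gained the call, and 14 turned sign, all of values that were not called. Between Drd1 and Adora2a these were Arc without the block (-0.043), with the peptide gate (-0.040) and without library 2 (-0.29 to 0.55 over single libraries left out), Ier5 with the peptide gate (0.071) and Nptx2 without library 3 (-0.33 to 0.043). For Sst-Npy they were Npas4 without the block (-0.74), with the looser gate (-0.34) and with the peptide gate (-6.65), and Bdnf with DESeq2 (0.57); for Pvalb, Bdnf with DESeq2 (2.003) and without library 2 (-2.98 to 0.19). For the reporter they were Nptx2 without the block (0.050) and matched on UMIs (0.27) and Homer1 matched on UMIs (0.020). For each, the cause was not tested. Interneuron gates first and, for the reporter only, no TMM scaling were chosen after seeing the data. Low counts limit the precision of Npas4, of Bdnf in spiny neurons and of all interneuron values, and library 1 was the shallowest.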
